A study of Homo sapiens with 19 samples.

Results

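The genes described here are 9 components of G protein-coupled receptor (GPCR) signaling, CHRM2, CHRM3, NPY1R, NPY2R, FFAR3, GPR18, GNG7, RGS18 and HOMER2, out of 31033 gene names on the array. They were chosen by their signal, which was lower in vit C-treated than in untreated cells in earlier results of these data, and an array spot belonged to a gene when the gene name of the array's design matched it. The vit C minus UT values of these 9 genes therefore made the choice, and they are given as a description with no test. On the array they had 16 probes, and 8 of the 9 genes were well above background, as the scanner software marks it, on every array of at least 1 group. NPY2R was not well above background on any of the 19 arrays.

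THP-1 cells, a human monocytic leukemia line, were turned into macrophage-like cells with 30 nM PMA, a phorbol ester, and both arms share this treatment. They were then left untreated (UT) or given 0.1 mM vit C, and harvested at 8, 24, 48 and 96 h. The UT arm had 2, 3, 2 and 3 arrays at these time points and the vit C arm had 3, 2, 2 and 2. Samples of low RNA integrity had been left out by the study before hybridization. THP-1 is 1 cell line, the study calls the replicates biological, the labels do not say which cultures they came from, and p-values measure only the spread between these 19 arrays. Of the 10 macrophage markers looked up, 9 were on the array, 8 were well above background on all 19 arrays and LYZ was so on 18. Of 12 markers of other cell types, 5 also gave signal above background on every array, among them CD3E, NKG7, KRT18 and ALB, and CD3D, EPCAM and RBFOX3 gave it on none.

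A GPCR passes a signal to a G protein, whose alpha subunit raises or lowers cyclic AMP (cAMP) or raises calcium, while its beta and gamma subunits act as a pair. Regulators of G protein signaling (RGS proteins) end the signal, and scaffolds such as the Homer proteins tie receptors to the calcium stores. In macrophages, cAMP is known to restrain inflammatory output, and receptors for neurotransmitters and metabolites connect these cells to nerves and to the gut microbiota.

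The level of a gene is the log2 signal of its brightest probe minus the 75th percentile of its array, so that 0 is the brightness below which 75 in 100 spots of that array lie. Levels of different genes come from different probes and were not set against each other. The 75th percentile was 296.8 to 638.5 signal units on 17 arrays and 806.3 and 923.7 on the vit C arrays at 96 h. These last 2 arrays were alone on their slide and were scanned on another day, so that slide and treatment cannot be told apart at 96 h. At no time point did a slide hold both UT and vit C arrays. UT 96 h replicate 3 lay apart from the other UT 96 h arrays for several of the genes, and values that it moves most are given with and without it. Genes near background shifted as well. At 96 h the 6415 genes with no array above background had a median vit C minus UT difference of -0.89, against -0.08 for the 19132 genes above background on every array of that comparison, and at 24 h those medians were -0.55 and -0.03.

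In order of time, 5, 7, 8 and 9 of the 9 genes were lower in vit C-treated cells with no overlap between the arrays of the 2 arms, where 23.9%, 18.3%, 28.4% and 26.2% of all genes were. With a difference of at least 1 on the log2 scale asked for as well, the counts were 1, 5, 8 and 9, where 3.24%, 3.91%, 4.02% and 10.3% of all genes met both conditions. Among genes above background on every array of an arm, these last shares were 2.01%, 1.64%, 3.45% and 2.27%, and the 8 measured genes gave counts of 1, 5, 8 and 8. Over the 4 times the median difference of the 9 genes was -0.26, -1.61, -1.97 and -2.17, and the median of all genes was -0.05, -0.13, -0.01 and -0.15. The choice of the genes used these values, so nothing is read from the counts. In bulk RNA, fewer cells that express a gene and less of its RNA per cell cannot be told apart.

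**Figure D1:**
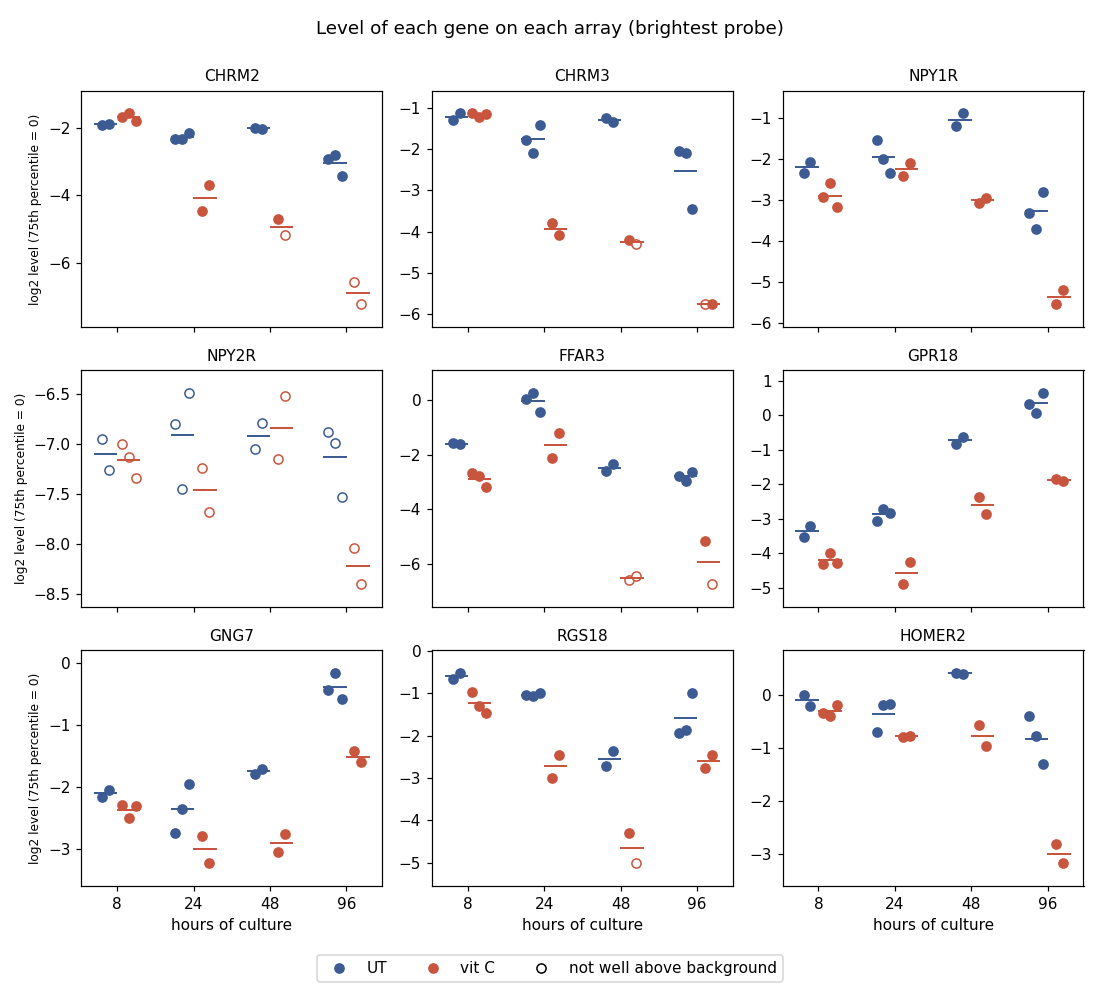
Log2 level of each of the 9 genes (y axis, 0 is the array's 75th percentile) on each array against hours of culture (x axis), UT in blue and vit C in red, with horizontal lines at group means and open circles for arrays not well above background. CHRM2 lay at means of -4.08, -4.93 and -6.89 in the last 3 vit C groups while UT means lay between -3.04 and -1.9, and all 19 circles of NPY2R are open.

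CHRM2 and CHRM3 are muscarinic acetylcholine receptors. CHRM2 couples to Gi and lowers cAMP, and CHRM3 couples to Gq and raises calcium. Their brightest probes are shown because the values of both genes come from them, and the second CHRM3 probe is shown because its difference was smaller. Each is the whole 60-base probe of the array files, with no letters marked.
CHRM2 brightest: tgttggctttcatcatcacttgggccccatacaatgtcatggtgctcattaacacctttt
CHRM3 brightest: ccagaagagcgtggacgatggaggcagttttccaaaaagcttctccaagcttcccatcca
CHRM3 second: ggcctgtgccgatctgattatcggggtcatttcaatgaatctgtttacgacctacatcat

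CHRM2 started at levels of -1.91 and -1.88 in UT cells and -1.67, -1.57 and -1.78 in vit C-treated cells at 8 h, so that every vit C array was slightly above UT. Without scaling the arrays overlapped at 8 h (signals of 160 and 120 in UT and 142, 150 and 134 in vit C), and the difference was 0.03. At 24 h the UT arrays gave -2.33, -2.33 and -2.15 and the vit C arrays -4.46 and -3.7. The arms had separated in the other direction by a mean of -1.81 (pooled SD 0.32), a 3.5-fold lower level. At 48 h UT stood at -2.01 and -2.02 and vit C at -4.7 and -5.16, and at 96 h UT stood at -2.91, -2.79 and -3.43 and vit C at -6.55 and -7.22. The 48 h difference was -2.91 (SD 0.23), with 1 of the 2 vit C arrays above background. At 96 h neither vit C array was above background, so on the deposited signals the level was at least 7.41-fold lower than in UT cells. With normexp, a background correction that draws dim signals together, the 96 h difference was -1.59, and with the mean of both CHRM2 probes it was -2.3. The order of the 8 group means ran from vit C 8 h through the UT groups to vit C 24, 48 and 96 h, and no 2 neighbours in it overlapped. In the UT arm alone CHRM2 differed by -1.14 at 96 h from 8 h, and it was left out of that test because its probes went in opposite directions (with such genes kept, adjusted p = 0.00892 by limma).

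CHRM3 had levels of -1.28 and -1.13 in UT and -1.13, -1.22 and -1.14 in vit C-treated cells at 8 h, which overlapped. At 24 h UT gave -1.77, -2.09 and -1.41 and vit C gave -3.78 and -4.07. The arms lay apart by -2.17 (SD 0.3, 4.5-fold lower). At 48 h the difference was -2.97 (UT -1.23 and -1.34, vit C -4.19 and -4.31), and at 96 h it was -3.23 (UT -2.04, -2.1 and -3.45, vit C -5.76 and -5.76). In each of these vit C groups 1 of 2 arrays was above background. UT 96 h replicate 3 lay at -3.45, apart from the other UT arrays and still above both vit C arrays. Without it the 96 h difference was -3.69 for CHRM3 and -4.04 for CHRM2.

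CHRM2 and CHRM3 had the most alike patterns of any pair. Over the 8 group means Pearson's r was 0.99, and each was the nearest gene of the other among the 14325 measured genes that varied by at least 1 on the log2 scale. The 8 means come from the same 19 arrays and are a description only. The second probes departed from the brightest. The second CHRM2 probe was not above background on any array of the 4 comparisons. The second CHRM3 probe, which shares no run of more than 4 bases with the first, was higher in vit C at 8 h by 0.64 and lower by -1.29, -0.95 and -1.29 afterwards. This difference was smaller than that of the brightest CHRM3 probe at each of these later times. The arrays of the second probe overlapped at 96 h through UT 96 h replicate 3, which lay at -7.05 and was not above background, while the other UT arrays lay at -3.68 and -3.43 and the vit C arrays at -6.16 and -5.85. Without that array they did not overlap, and the difference was -2.45 for the second probe against -3.69 for the brightest.

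**Figure D2:**
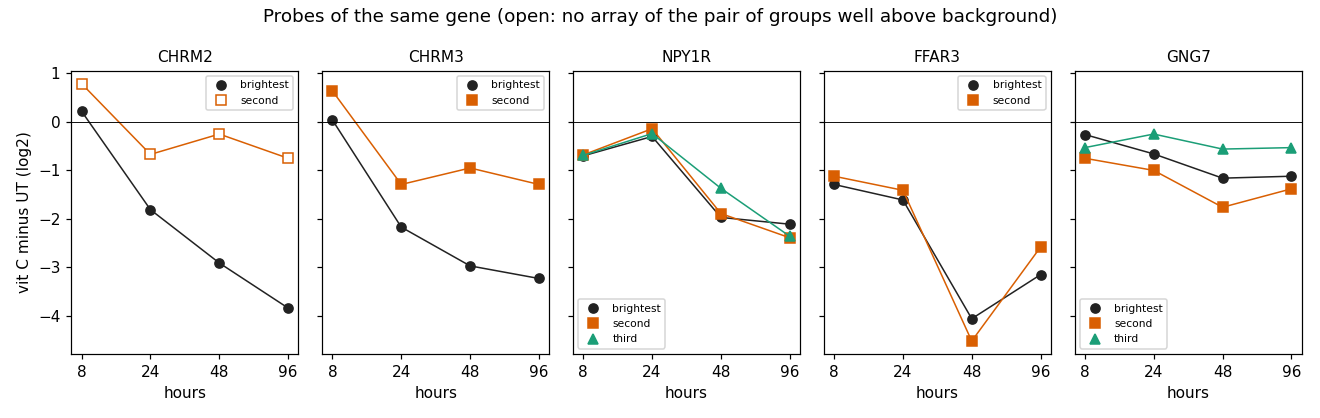
Vit C minus UT difference in log2 units (y axis) against hours of culture (x axis) for every probe of the 5 genes with more than 1 probe, open where no array of either arm was above background. The NPY1R and FFAR3 probes run together, whereas the second CHRM3 probe lies at -1.29 where the brightest lies at -3.23 at 96 h (-2.45 and -3.69 without UT 96 h replicate 3).

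NPY1R and NPY2R are receptors of neuropeptide Y that couple to Gi. NPY1R had UT levels of -2.33 and -2.07 at 8 h and vit C levels of -2.92, -2.59 and -3.18. At 24 h UT gave -1.54, -2 and -2.33 and vit C -2.4 and -2.1, so the arms overlapped at that time. They were apart at 48 h, with UT at -1.19 and -0.88 and vit C at -3.07 and -2.95, and at 96 h, with UT at -3.32, -3.71 and -2.8 and vit C at -5.55 and -5.21. The differences were -0.7, -0.3, -1.97 and -2.11, a 3.93-fold lower level at 48 h and a 4.31-fold lower one at 96 h. All 3 NPY1R probes ran together, with r of 0.97 to 1 over the group means, although they share no run of more than 6 bases. One of them has 11 spots on each array, and at 96 h 9 to 11 of the 11 were above background on UT arrays and 0 and 4 on the vit C arrays.

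NPY2R could not be measured. Its signal was 2.51 to 4.87 units on the 19 arrays, and no fold is given for it. At 96 h its log2 level was lower by -1.08 in vit C-treated cells with no overlap, near the -0.89 median of genes with no array above background, and without scaling the arrays its difference was -0.25. Of the other receptors of this family, NPY5R, the chromosomal neighbour of NPY1R, differed by 0.19 at 48 h and -0.96 at 96 h (adjusted p = 0.995 and 0.224 by limma). PPYR1, the NPY4R gene, differed by -0.06 and -0.48 (adjusted p = 0.998 and 0.198). Neither passed the test. The ligand, NPY, was called lower at 96 h, by -1.61 ± 0.18 (SE, adjusted p = 0.000133 by limma), and every UT and vit C array of that comparison was above background for it. Without scaling the arrays NPY was not called.

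FFAR3 is a receptor for short-chain fatty acids, the products of gut bacteria, and couples to Gi. Its 2 probes are the same sequence shifted by 1 base, with 59 bases in common, so they are not independent measurements. The first 30 bases of each show the shift, with the polyadenylation signal in capitals.
FFAR3 brightest, first 30 bases: gttcccattgctcAATAAAtgtggatcatc
FFAR3 second, first 30 bases: agttcccattgctcAATAAAtgtggatcat

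FFAR3 had the largest difference of the 9 genes at 8 h. At that time UT stood at -1.58 and -1.61 and vit C at -2.69, -2.8 and -3.18, a difference of -1.29 (SD 0.21, 2.45-fold). At 24 h UT rose to 0.06, 0.26 and -0.44, and vit C stood at -2.12 and -1.19. Both arms were thus at their highest at 24 h, and the vit C arrays lay below all UT arrays. At 48 h UT gave -2.61 and -2.35 and vit C -6.61 and -6.46, and neither vit C array was above background, so on the deposited signals the level was at least 4.5-fold lower, while the difference was -1.03 with normexp. At 96 h UT gave -2.77, -2.98 and -2.65 and vit C -5.17 and -6.74, a difference of -3.15 (SD 0.65) with 1 vit C array above background. The 2 vit C arrays at 96 h lay further apart than in any other group of this gene, and the difference was -3.94 without vit C replicate 1 and -2.37 without replicate 2. The second probe, above background on both vit C arrays, differed by -2.58.

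FFAR3 lies in RefSeq between FFAR1 and GPR42, a near-identical copy, with FFAR2 beyond it. The GPR42 probe shares no run of more than 5 bases with the FFAR3 probes, and which of these genes each probe reads is uncertain. It differed by 0.24 at 48 h and -0.11 at 96 h (adjusted p = 0.877 and 0.856 by limma). FFAR2, another short-chain fatty acid receptor, was called lower at 48 h (adjusted p = 0.0261), at least 1.22-fold, with no vit C array above background, a call that did not hold without either UT 48 h array or vit C 48 h replicate 1. At 96 h FFAR2 differed by 0.25 (adjusted p = 0.702). FFAR1, a receptor for longer fatty acids, differed by 0.64 and 0.21 (adjusted p = 0.518 and 0.75).

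GPR18 is a receptor for lipid ligands and lies beside GPR183 in the genome. Its only probe is shown because it carries the largest rise with time in culture in UT cells.
GPR18: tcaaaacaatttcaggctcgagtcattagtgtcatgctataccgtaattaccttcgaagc

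GPR18 levels in UT cells were -3.52 and -3.19 at 8 h, -3.07, -2.71 and -2.82 at 24 h, -0.83 and -0.61 at 48 h and 0.34, 0.08 and 0.65 at 96 h. In vit C-treated cells they were -4.3, -3.98 and -4.28, then -4.88 and -4.25, then -2.36 and -2.85, then -1.85 and -1.91. Both arms were at their highest at 96 h, and at each time every vit C array was below every UT array. The differences were -0.84, -1.7, -1.88 and -2.24 (SD 0.2 to 0.3), or 1.78-, 3.24-, 3.69- and 4.71-fold. GPR18 was above background on all 19 arrays. Its neighbour GPR183, listed on the array as EBI2, moved the other way and was called higher at 96 h, by 1.31 ± 0.38 (SE, adjusted p = 0.0401 by limma), a call that held in 11 of 19 fits with 1 array left out.

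GNG7 encodes a gamma subunit of G proteins. UT levels were -2.17 and -2.05 at 8 h, -2.75, -2.36 and -1.96 at 24 h, -1.79 and -1.71 at 48 h and -0.44, -0.16 and -0.59 at 96 h. Vit C levels were -2.29, -2.51 and -2.31, then -2.79 and -3.24, then -3.05 and -2.77, then -1.43 and -1.6. With scaling the arms did not overlap at any time (without it they did at 24 and 96 h). The scaled gaps were 0.12 at 8 h and 0.04 at 24 h, and wider, 0.98 and 0.84, at 48 and 96 h. The differences were -0.26, -0.66, -1.16 and -1.12, the last a 2.17-fold lower level. The second GNG7 probe differed by -0.75, -1, -1.76 and -1.38 over the 4 times. The third, above background on few arrays, differed by -0.25 to -0.56.

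RGS18 encodes a GTPase-activating protein that ends Gi and Gq signals and is best known from platelets and bone marrow cells. At 8 h UT gave -0.65 and -0.51 and vit C -0.96, -1.29 and -1.46, and at 24 h UT gave -1.03, -1.07 and -0.98 and vit C -3 and -2.45. At 48 h UT had dropped to -2.71 and -2.37 and vit C to -4.31 and -5.02, and only 1 of these vit C arrays was above background. The 24 and 48 h differences were -1.7 (SD 0.23) and -2.12 (SD 0.4). At 96 h UT gave -1.93, -1.86 and -0.99 and vit C -2.76 and -2.45, in each arm all above the 48 h arrays. The difference there was -1.01 (SD 0.44), and -0.71 without UT 96 h replicate 3.

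HOMER2 encodes a scaffold that binds metabotropic glutamate receptors, inositol trisphosphate receptors and ryanodine receptors. Its arms overlapped at 8 h and were 0.05 apart at 24 h. At 48 h UT stood at 0.41 and 0.39 and vit C at -0.58 and -0.96, a 2.26-fold lower level. At 96 h UT stood at -0.4, -0.78 and -1.3 and vit C at -2.81 and -3.17, a 4.49-fold lower level (difference -2.17, SD 0.4, and -2.4 without UT 96 h replicate 3). HOMER1 differed by -0.38 and -0.46 at 48 and 96 h and HOMER3 by -0.15 and -0.56, and none of these passed the test (adjusted p = 0.488, 0.163, 0.899 and 0.0853 by limma).

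The background correction changed the sizes of the differences. With normexp the 48 h differences were -1.04 for CHRM2, -1.41 for CHRM3, -1.24 for NPY1R, -1.25 for GPR18, -0.69 for GNG7, -0.69 for RGS18 and -0.97 for HOMER2. At 24 h they were -0.96 for CHRM2, -1.18 for CHRM3, -0.79 for GPR18 and -1.19 for RGS18, at 8 h -0.4 for NPY1R, -0.71 for FFAR3 and -0.2 for GPR18, and at 96 h -1.66 for CHRM3, -1.25 for NPY1R and -1.54 for FFAR3. With the mean of a gene's probes CHRM3 was at -1.96 at 48 h and -2.26 at 96 h, and CHRM2 at -1.58 at 48 h. All of these kept their direction.

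The scaling of the arrays mattered for the 96 h values. Because the vit C arrays were brighter there, the median difference of all genes was 0.68 without scaling, and relative to UT the 9 genes then differed less. CHRM2 was at -3.01, CHRM3 at -2.4, FFAR3 at -2.32, GPR18 at -1.4, HOMER2 at -1.33 and NPY1R at -1.28. GNG7 and RGS18 were at -0.29 and -0.17 without scaling, and their unscaled signals overlapped between the arms. RGS18, for instance, had unscaled signals of 102, 126 and 320 on UT arrays and 119 and 169 on vit C arrays. Whether GNG7 and RGS18 were lower at 96 h thus rested on the scaling. At 24 h the unscaled differences were 0.1 for NPY1R, -0.03 for HOMER2 and -0.26 for GNG7, and the unscaled arrays of these genes overlapped. At 48 h the median difference of all genes was 0.07 without scaling and -0.01 with it. The unscaled difference then was -1.08 for GNG7 and -2.04 for RGS18, and 8 of the 9 genes were lower without overlap either way.

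**Figure D3:**
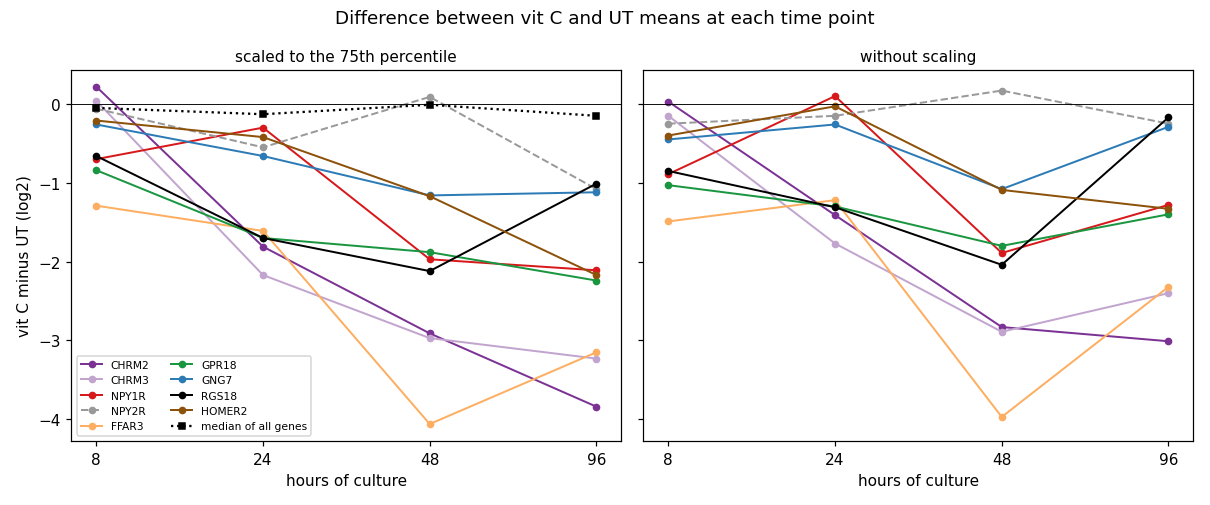
Vit C minus UT difference of group means in log2 units (y axis) against hours of culture (x axis) for the 9 genes, with arrays scaled to their 75th percentile on the left and unscaled on the right, NPY2R dashed, and the median of all genes dotted. At 48 h the panels are alike for all 9 genes, and at 96 h RGS18 lies at -1.01 on the left and -0.17 on the right.

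With the slide as a fixed block, which leans on the UT 96 h arrays because they alone spread 1 UT group over 2 slides, the median of the 9 genes was -0.32, -1.43 and -2.09 at 8, 24 and 48 h. It could not be fitted at 96 h. In that fit HOMER2 changed sign, to 0.43 at 8 h and 0.22 at 24 h, and was -0.35 at 48 h. UT 96 h replicate 1 (HOMER2 at -0.4) was on 1 slide and replicates 2 and 3 (-0.78 and -1.3) were on another. The slide fit was not made without replicate 3, which lay apart. FFAR3 at 8 h (-1.25), GPR18 at 24 h (-1.72) and NPY1R at 48 h (-2.09) moved by less than their SD between replicates. CHRM3 moved by more than its SD at all 3 times, to 0.78, -1.43 and -2.17, as did RGS18 at 8 and 24 h, to -1.15 and -2.2, CHRM2 at 8 and 48 h, to 0.42 and -2.48, and GNG7 at 48 h, to -1.36.

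Time in culture was tested in UT cells alone with limma, against UT 8 h. These UT arrays also entered the vit C minus UT values that chose the genes. At 24 h FFAR3 was called higher, by 1.55 ± 0.38 (SE, adjusted p = 0.0424), and none of the 6 tested genes was called lower, where 1.37% of all tested genes were called higher and 1.27% lower. At 48 h 2 of the 8 tested genes were called higher and 1 lower, where 5.56% and 3.37% of all genes were. NPY1R rose by 1.16 ± 0.32 (adjusted p = 0.0312) and GPR18 by 2.63 ± 0.27 (adjusted p = 2.1e-05), and RGS18 fell by 1.96 (adjusted p = 0.00127).

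At 96 h 2 of the 8 genes were called higher and 4 lower, against shares of 8.92% and 7.18% of all genes. GPR18 was 3.71 ± 0.25 above its 8 h level (adjusted p = 1.35e-07) and GNG7 1.72 ± 0.23 (adjusted p = 9.71e-05). CHRM3 fell by 1.32, NPY1R by 1.08, FFAR3 by 1.21 and RGS18 by 1.01 (adjusted p = 0.0112, 0.0156, 0.037 and 0.0261). The rises of GPR18 and GNG7 and the 48 h fall of RGS18 were called with each of the 19 arrays left out. The other calls were not: CHRM3 was not called without UT 96 h replicate 3 (where its change was -0.86) or either UT 8 h array, RGS18 at 96 h without UT 96 h replicate 1 or 2 or either UT 8 h array, NPY1R at 96 h without UT 96 h replicate 2 or UT 8 h replicate 2, and FFAR3 at 96 h without either UT 8 h array. FFAR3 at 24 h was not called without UT 8 h replicate 2, and NPY1R at 48 h not without UT 8 h replicate 1 or UT 48 h replicate 2. Without scaling, FFAR3 was not called at 24 h and CHRM3 was called lower in its place, NPY1R was not called at 48 h, and FFAR3 and RGS18 were not called at 96 h. With normexp, NPY1R was not called at 48 h, nor were CHRM3, NPY1R, FFAR3 and RGS18 at 96 h. CHRM3 and NPY1R were also not called at 96 h with the mean of a gene's probes, and these and FFAR3 not with the slide as a fixed block. The methods' t-test with Benjamini-Hochberg adjustment called none of the 9 genes at any time. Over the whole array it called 0, 1 and 264 genes at 24, 48 and 96 h, so little can be read from this.

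**Figure D4:**
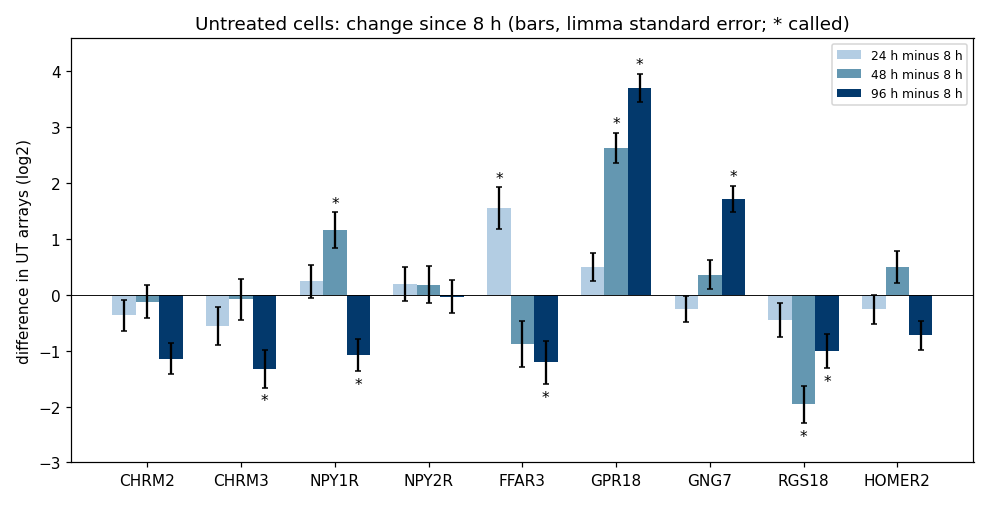
Difference of UT cells at 24, 48 and 96 h from UT cells at 8 h in log2 units (y axis), with limma standard errors as error bars and a star where the gene was called, for the 9 genes (x axis). GPR18 rises to 2.63 and 3.71, and RGS18 lies lowest at 48 h with -1.96.

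The courses thus differed among the 9 genes within both arms. GPR18 and GNG7 were at their highest at 96 h in each arm (r of 0.85 over the 8 group means). FFAR3 peaked at 24 h in each arm, and its r with GPR18 was -0.2. NPY1R and HOMER2 were at their highest at 48 h in UT cells and had r of 0.94. RGS18 was highest at 8 h and lowest at 48 h in each arm. For RGS18 the nearest gene was PTGER4, a Gs-coupled prostaglandin E2 receptor (r of 0.987), for GNG7 NUDT2 (0.983), for GPR18 F11R (0.973), for NPY1R GLIS1 (0.985) and for FFAR3 RP11-529I10.4 (0.978). GABBR2, a GABA B receptor subunit, was the third nearest to CHRM3 (0.972). These values describe 8 group means that share their arrays, and they say nothing of common control.

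RefSeq promoter windows, from 250 bases before to 50 after a gene's start (GRCh38.p14), were held for 8 of the 9 genes, in 10 windows. They were searched on both strands for the cAMP response element, TGACGTCA, and its shorter form TGACG, which the full element contains. The full element was in the GNG7 window alone, and 1.85% of the 35116 windows hold it. The short form was in windows of CHRM2, GNG7 and NPY1R, and 24.6% of all windows hold it. The stretch of the GNG7 window with the element, in capitals and starting 241 bases before the gene's start, is shown because GNG7 is the G protein subunit of the set, chr19:2702845-2702944 on the minus strand. A match is a description of the letters and not a site.
GNG7 promoter stretch: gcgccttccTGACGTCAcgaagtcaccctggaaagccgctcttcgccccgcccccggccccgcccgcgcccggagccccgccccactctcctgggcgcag

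The other genes of GPCR signaling were followed in 10 lists, of which 286 genes were on the array. In vit C against UT cells, limma called 3, 5, 10 and 45 of them lower over the 4 times and 0, 2, 3 and 10 higher, at an absolute log2 difference of at least 1 and an adjusted p of at most 0.05. At an unadjusted p of at most 0.05 and that difference, 16, 22, 21 and 57 were lower and 6, 3, 12 and 13 higher. The share of all genes at the unadjusted p was not counted. In percent, the lower calls at the adjusted p were 1.32%, 2.09%, 4.26% and 18% of the tested list genes, where 0.219%, 0.839%, 1.54% and 10.1% of all genes were lower. By probes above background on every array of an arm the lower calls numbered 2, 4, 10 and 11, or 1.43%, 2.88%, 7.19% and 6.51% of those tested, where the shares of all genes were 0.233%, 0.936%, 2.08% and 2.34%. By such probes 0, 1, 3 and 9 genes were called higher, where 0.448%, 1.27%, 2.93% and 3.68% of all genes were. By all probes the shares higher were 0%, 0.837%, 1.28% and 4%, where 0.342%, 0.835%, 2.12% and 2.73% of all genes were. The median difference over the lists was -0.09, -0.34, -0.04 and -0.26, against -0.05, -0.13, -0.01 and -0.15 over all genes. At 96 h the split of 45 lower to 10 higher rested on dim probes and on scaling: by probes above background on every array of an arm it was 11 to 9, and without scaling it was 6 to 47. At 24 and 48 h the unscaled splits were 0 to 3 and 2 to 2, and at 48 h the percentile over detected probes gave 7 to 4. At 96 h the split was 16 to 9 with quantile normalization, 18 to 11 with the percentile over detected probes, 73 lower without UT 96 h replicate 3, and 19, 15, 12 and 11 lower without UT 96 h replicate 1, UT 96 h replicate 2, vit C 96 h replicate 1 and vit C 96 h replicate 2.

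Among receptors that raise cAMP, RXFP1, a relaxin receptor, was at least 3.32-fold lower at 48 h (not called without any 1 of the 4 arrays of that time), and DRD5, a dopamine receptor, was called higher then, by 2.29 ± 0.28 (adjusted p = 0.000754). Among receptors that lower cAMP, 13 of 46 tested genes were called lower and 5 higher at 96 h, where 10.1% and 2.73% of all genes were, and by probes above background 2 and 5 of 25, where 2.34% and 3.68% were. The 2 lower by such probes were ADRA2B (-2.18) and GPR109B (-1.18), and the 5 higher included P2RY14 (2.51) and FPR1, the formyl peptide receptor (1.86). The GPR109B call did not hold without UT 96 h replicate 3 or either vit C 96 h array. GABBR1 was called lower at 48 h (-1.15, not without UT 48 h replicate 2 or vit C 48 h replicate 2) and ADORA3 at 24 h (-1.08, not without UT 24 h replicate 2 or 3 or vit C 24 h replicate 2). The 8 h call of GABBR1 (-1.08) held in 5 of 19 fits with 1 array left out and the 24 h call of GRM8 (-1.27) in 3 of 19.

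CHRM1, a muscarinic receptor that couples to Gq as CHRM3 does, was called lower at 48 h, at least 1.7-fold (adjusted p = 0.0129 by limma), and differed by -0.37 at 96 h (adjusted p = 0.555). CHRM4 and CHRM5 passed at neither time. Among the Gq-coupled receptors the named calls were BDKRB2 at 8 h (-1.72), PTAFR at 24 h (-1.59), CYSLTR1 (-1.04) and F2R (at least 4.71-fold lower) at 48 h, and ADRA1B at 96 h (-1.78). CHRM1 and CYSLTR1 were not called without either UT 48 h array or vit C 48 h replicate 2, F2R not without UT 48 h replicate 2 or vit C 48 h replicate 1, BDKRB2 not without UT 8 h replicate 2, PTAFR not without vit C 24 h replicate 2 and ADRA1B not without UT 96 h replicate 2. Of the partners of HOMER2 and the calcium store, 26 genes, 22, 21, 22 and 25 were tested over the 4 times and none was called. Of all genes 0.219%, 0.839%, 1.54% and 10.1% were called lower and 0.342%, 0.835%, 2.12% and 2.73% higher. By probes above background 22 were tested at 96 h, where 2.34% and 3.68% of all genes were called lower and higher.

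Of the G protein subunits other than GNG7, none of the 18, 17, 18 and 21 tested by probes above background over the 4 times was called lower. By such probes 0.233%, 0.936%, 2.08% and 2.34% of all genes were. GNG11, another gamma subunit, was called higher at 48 h (1.14 ± 0.28 SE, adjusted p = 0.0354) and 96 h (1.36 ± 0.25, adjusted p = 0.00626), and GNGT2 at 24 h (1.33, not without vit C 24 h replicate 2). The GNG11 call did not hold at 48 h without any 1 of the 4 arrays of that time or vit C 8 h replicate 1, and at 96 h without vit C 96 h replicate 1. In the RGS family, 7 of 19 tested genes were called lower at 96 h and none higher (10.1% and 2.73% of all genes), by probes above background 3 and 0 of 12 (2.34% and 3.68%). RGS4 was at least 7.76-fold lower (adjusted p = 6.83e-05), RGS2 differed by -1.29 ± 0.22 (adjusted p = 0.00391) and RGS16 by -1.19 ± 0.17 (adjusted p = 0.00101). Of the cAMP machinery, which holds adenylate cyclases, phosphodiesterases, protein kinase A and the CREB family, 4 of 34 tested genes were called lower at 96 h and 1 higher. These were 11.8% and 2.94%, where 10.1% and 2.73% of all genes were. By probes above background 1 of 29 was lower, PRKAR1B (-1.25), and 1 higher, ADCY10, listed as SAC (at least 1.04-fold, with no UT array above background, and turning to -0.47 on the log2 scale with normexp). Each was 3.45%, where 2.34% and 3.68% of all genes were lower and higher. Of 9 CREB targets tested at 96 h, 3 were called lower and 2 higher (33.3% and 22.2%), where 10.1% and 2.73% of all genes were. By probes above background 2 and 1 of 7 were (28.6% and 14.3%), where 2.34% and 3.68% of all genes were. They were NR4A3 (-2.13), NR4A1 (-1.47) and, higher, CRH (3.1, with 1 of 3 UT arrays above background). NR4A1 was not called without UT 96 h replicate 2 or either vit C 96 h array, SAC not without either vit C 96 h array, RGS2 not without vit C 96 h replicate 2 and PRKAR1B not without UT 96 h replicate 1 or 2 or either vit C 96 h array. With the slide as a fixed block no list gene was called lower at 8, 24 or 48 h. Without scaling, the 96 h calls of NPY, NR4A3, NR4A1, RGS2, PRKAR1B, GPR109B and ADRA1B did not hold, and those of RGS4 and ADRA2B did. Of the lower calls named before 96 h, only those of CHRM1 and F2R held without scaling.

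**Figure D5:**
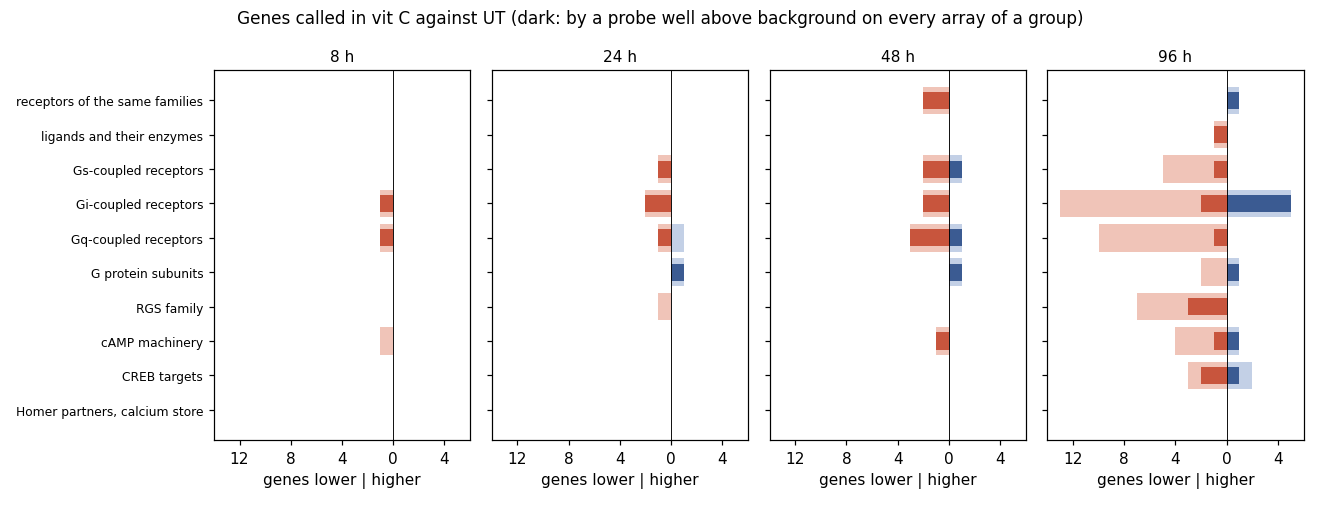
Number of genes of each list (rows) called lower (bars to the left, red) or higher (to the right, blue) in vit C against UT cells at the 4 time points, pale for all calls and dark for calls by probes above background on every array of an arm. At 96 h the Gi-coupled receptors have 13 genes lower, of which 2 are dark, and the Homer partners have none at any time.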

How the data were processed

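The 19 arrays were Agilent one-colour arrays of THP-1 RNA. The deposited intensity values are the processed signals of Agilent Feature Extraction 10.5.1.1, made by the authors with no scaling between arrays. The deposited log2 values of the series matrix are, for probes with 1 spot, the same signals minus 1 constant per array (a shift to the 75th percentile, per the authors' methods), and served as an alternative. Here, log2 of the processed signal minus each array's 75th percentile was taken, with spots flagged as outliers left out and spots of a probe averaged (50238 probes). A gene's value is that of its brightest probe. "At least" folds use, for the dim arm, the higher of the probe's own level and the lowest level marked above background on that array. Each array is 1 replicate of the group its label gives, and the number of arrays limits the precision. No array held a saturated spot.

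The limma test (lmFit and eBayes, limma 3.58.1 in R 4.3.3, 2-sided) was fitted to the 8 group means. A gene was called at an adjusted p (Benjamini-Hochberg, over all probes) of 0.05 or less with an absolute log2 difference of 1 or more, with genes whose probes went in opposite directions removed, as in the methods. The vit C minus UT values of the 9 genes have no test. The members and gene lists were chosen with earlier results of these data known. In each list, up to 2 genes called lower and 2 higher with the largest change at each time, by a brightest probe above background on every array of an arm, are named, and further relatives of the 9 genes in the same families, such as RGS16. The lists come from general knowledge. Likeness is Pearson's r over the 8 group means. Same-numbered UT and vit C arrays were not paired (correlation of deviations -0.34 to 0.14). Alternatives were quantile normalization, the percentile over detected probes, normexp with an offset of 50, a floor of 20, gene means of probes, opposing probes kept, dim probes left out, a trend in eBayes, the methods' t-test, slide and replicate blocks, series matrix values, each array left out and, chosen after seeing the data, no scaling. The analysis scripts were tested on simulated data. Results of some genes that the naming rule covers are not reported here.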

Additional observations from a re-analysis of the deposited data

Results flagged for a closer look

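The vit C minus UT difference of CHRM2 changed direction with time: every vit C array lay above every UT array at 8 h (difference 0.22) and below every UT array at 24, 48 and 96 h. The 8 h part rested on the scaling: without it the difference was 0.03 and the arrays overlapped. The difference between time points was not tested, because CHRM2 was chosen on these values.

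For 8 of the named list genes the vit C effect differed among the 4 time points by limma's F test of the interaction. The adjusted p was 0.00398 for SAC (ADCY10, whose 96 h difference turned to -0.47 with normexp), 0.0165 for RGS4, 0.0197 for DRD5, 0.0243 for FPR1, 0.0255 for BDKRB2, 0.0282 for P2RY14, 0.0319 for NPY and 0.0419 for CRH. These genes were named because of a call at 1 or more of the same time points, so the F test is not independent of the choice.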

How the results depend on the processing

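Of the 8 other settings that gave 96 h values for the 9 genes, all 9 were lower in each but the floor, where NPY2R was at 0 and 8 were lower. The median of the 9 genes at 24, 48 and 96 h was -0.79, -1.03 and -1.54 with normexp. It was -1.54 at 96 h with the floor, -1.22 and -1.33 at 24 and 96 h without scaling, and -0.51, -1.24 and -1.75 at 8, 24 and 48 h with gene means of probes. Of the 9 genes, 4 were lower without overlap at 24 h without scaling. HOMER2 turned to 0.43 and 0.22 at 8 and 24 h with the slide as a fixed block, and SAC to -0.47 at 96 h with normexp. The cause of these changes was not tested. With arrays left out in turn the median was -0.32 to -0.19, -1.98 to -1.15, -2.13 to -1.77 and -2.33 to -2.09 at the 4 times, the extremes at 24 h without vit C 24 h replicate 2 and replicate 1, and the genes lower without overlap numbered 5 to 7, 7 to 8, 8 to 9 and 9 to 9.

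Counts of UT calls among the 9 genes were 0 to 1, 2 to 3 and 2 to 6 with arrays left out (at 96 h, 2 without UT 8 h replicate 2). At 96 h they were 2 with normexp and 3 with the slide as a fixed block, and the methods' t-test gave 0 at 24, 48 and 96 h. That t-test called 0, 1 and 264 of all genes at these times.

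List genes called lower at 8, 24, 48 and 96 h numbered 0, 3, 1 and 19 with normexp, 1, 0, 2 and 6 without scaling, 0, 0 and 0 with the slide as a fixed block (96 h could not be fitted) and 0 at each time with the methods' t-test, where 11, 17, 23 and 47 list genes passed in either direction at an unadjusted p. After adjustment that t-test called only 11, 0, 1 and 0 of all genes. At 48 and 96 h quantile normalization gave 17 and 16. At 96 h the percentile over detected probes gave 18, the floor 11, the eBayes trend 27, dim probes left out 15 and the replicate block 18. The replicate block moved no other count of calls by over 1.5 times. List genes called higher at 24 h were 0 with normexp, 1 with the floor, 0 with the slide block and 0 with the methods' t-test. At 48 h they were 6 with quantile normalization, 5 with the trend, 5 without dim probes and 0 with the t-test. At 96 h they were 4 with normexp, 47 without scaling and 0 with the t-test. With arrays left out, lower calls ranged from 1 to 3, 2 to 12, 1 to 15 and 11 to 73, and higher calls from 0 to 0, 0 to 3, 2 to 5 and 3 to 15, the highest lower counts at the last 3 times without UT 96 h replicate 3. Depth does not apply to arrays; genes near background, NPY2R above all, set the limit.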
